A study of Mus musculus with 20 samples.

Results

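Rdh10 and Stra6 are genes of vitamin A metabolism, and their transcript levels were followed here in mouse nephron progenitor cells (NPCs) across all 20 RNA-seq libraries of the series. They are 2 of the 31130 genes in the deposited table. Rdh10 (ENSMUSG00000025921) encodes retinol dehydrogenase 10, the enzyme that oxidises retinol to retinal in the embryo. Stra6 (ENSMUSG00000032327) encodes a membrane receptor that takes up retinol from its carrier in plasma, retinol-binding protein. Both genes were chosen by measured values of these same libraries, Rdh10 for its level in high against low CHIR in CTRL cells and Stra6 for its levels in high CHIR without cadherin adhesion and without β-catenin. Those differences are therefore given as descriptions without a test. In RefSeq annotation of GRCm38.p6, Rdh10 lies at chr1:16105882-16132550 and Stra6 at chr9:58063793-58154004. The deposited tables pair Rdh10 with its identifier, whereas the name Stra6 came with its identifier when the genes were chosen and is not paired with it in the tables used here.

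Retinol enters cells through Stra6 or by other routes, is oxidised reversibly to retinal by retinol dehydrogenases such as Rdh10, and is then oxidised irreversibly to retinoic acid by retinal dehydrogenases of the Aldh1a family. Retinoic acid binds nuclear receptors that regulate transcription, and it is cleared by Cyp26 enzymes. In the embryonic kidney, retinoic acid signalling is best known for maintaining the receptor Ret in the ureteric bud, with stromal cells as a source of the ligand.

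Primary NPCs came from embryonic day 16.5 kidneys of mice carrying Cas9-eGFP, so that every group, controls included, expressed the nuclease. Cells received guide RNAs against GFP (CTRL), Ctnna1 (α-catenin-KO), Ctnnb1 (β-catenin-KO) or Cdh2, Cdh3, Cdh4 and Cdh11 together (QCKO, quadruple cadherin knockout), with 48 h allowed for gene removal. CHIR was then given for 24 h at 1.25 µM (low CHIR) or 5 µM (high CHIR). CHIR is an inhibitor of GSK3β that stabilises β-catenin and mimics the Wnt signal that induces NPCs. Transfected cells were isolated by an mCherry reporter as pools, not clones. CTRL and β-catenin-KO had 3 libraries at each CHIR dose and α-catenin-KO and QCKO had 2. The replicate number marks a date in the sample titles that groups share. The titles do not say which step the date refers to, although the figures label it as a culture date. Libraries held between 18124772 and 28472412 reads assigned to genes, and the members were covered by 41 to 5299 reads in a library. Values below are normalized counts, which are reads divided by a size factor for each library.

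The β-catenin-KO is the group on which most differences turn, so the designed guides that the study lists against Ctnnb1 for knockouts of 48 h are shown, with the 10 bases at the 3′ end, nearest the PAM, in capitals. The listing names sgRNA5 for exon 3 and sgRNA6 for exon 6 but gives the same letters for both.
Ctnnb1 sgRNA1 (exon 2): atgagcagcgTCAAACTGCG
Ctnnb1 sgRNA3 (exon 3): agccaagcgcTGGACATTAG
Ctnnb1 sgRNA5 and sgRNA6: gagattatgcAGTGTCGTGA

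Of the 2 members, Stra6 was matched to RefSeq promoter sequence, in 4 windows that each run from 250 bases before to 50 bases after a start site. The windows were searched on both strands for CTTTGAT, a form of the site bound by the TCF/LEF partners of β-catenin, and for AGGTCA repeated in the same orientation after a spacer of 5 bases, a form of the retinoic acid response element. CTTTGAT was found in 1 of the 4 Stra6 windows and in 3.73% of all 32851 windows. Windows of 1 gene cannot show enrichment. The second motif was found in none of the Stra6 windows and in 0.00913% of all windows, too few for its absence to be informative. A single AGGTCA was found in none of the Stra6 windows and in 16.3% of all windows. The window with the match is chr9:58129099-58129398 (GRCm38.p6, plus strand), shown because it carries the only match. The capitals mark the site, read on the minus strand and beginning 145 bases before the start site.
Stra6 promoter: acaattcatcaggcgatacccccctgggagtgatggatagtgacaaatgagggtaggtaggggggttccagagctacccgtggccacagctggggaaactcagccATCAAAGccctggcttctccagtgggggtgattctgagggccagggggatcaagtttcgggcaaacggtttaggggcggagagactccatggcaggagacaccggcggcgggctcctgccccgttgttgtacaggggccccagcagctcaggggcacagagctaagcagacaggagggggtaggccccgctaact

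Before the results, 1 feature of the libraries has to be stated. The β-catenin-KO libraries of replicate 1 stood apart from those of replicates 2 and 3 at both CHIR doses, and Stra6 was among the genes that separated them. Of 16691 genes whose mean over the libraries reached 10 normalized counts, 79 were more than 3 log2 units higher in all 4 β-catenin-KO libraries of replicates 2 and 3 than in either library of replicate 1, and 11 were lower by as much; this threshold was chosen after the values were seen. The levels of the members in β-catenin-KO are therefore given by replicate, and differences that rest on that group also without replicate 1 in any group.

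Rdh10 was expressed strongly in low CHIR and was low in high CHIR wherever β-catenin was not targeted, while β-catenin-KO NPCs kept most of it. In CTRL, low CHIR libraries had normalized counts of 2128, 2075 and 2458 for replicates 1, 2 and 3, and high CHIR libraries had 76.0, 59.8 and 150.5. The groups were far apart, and the high CHIR mean was 4.30% of the low CHIR mean, which corresponds to a 23.3-fold lower level. This is the contrast that chose the gene, and 10.7% of genes were called in it, a call being an adjusted p under 0.05 by limma together with an absolute log2 fold change over 0.5. In bulk samples such as these, fewer cells that express a gene and less RNA per cell cannot be told apart.

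Rdh10 fell by a similar factor without adhesion proteins. In α-catenin-KO, counts were 2579 and 2269 at the low dose and 91.5 and 81.7 at the high dose for replicates 1 and 3. The log2 fold change was -4.79 ± 0.39 (SE; limma adjusted p = 1.80e-05), in a comparison in which 4.39% of genes were called. In QCKO, counts were 2059 and 2516 at the low dose and 49.5 and 97.3 at the high dose for replicates 2 and 3. The log2 fold change there was -5.01 ± 0.39 (SE; limma adjusted p = 1.25e-05), with 4.93% of genes called. Every library in high CHIR lay below every library in low CHIR in both knockouts, with folds within a date from 25.9 to 41.6.

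**Figure D1:**
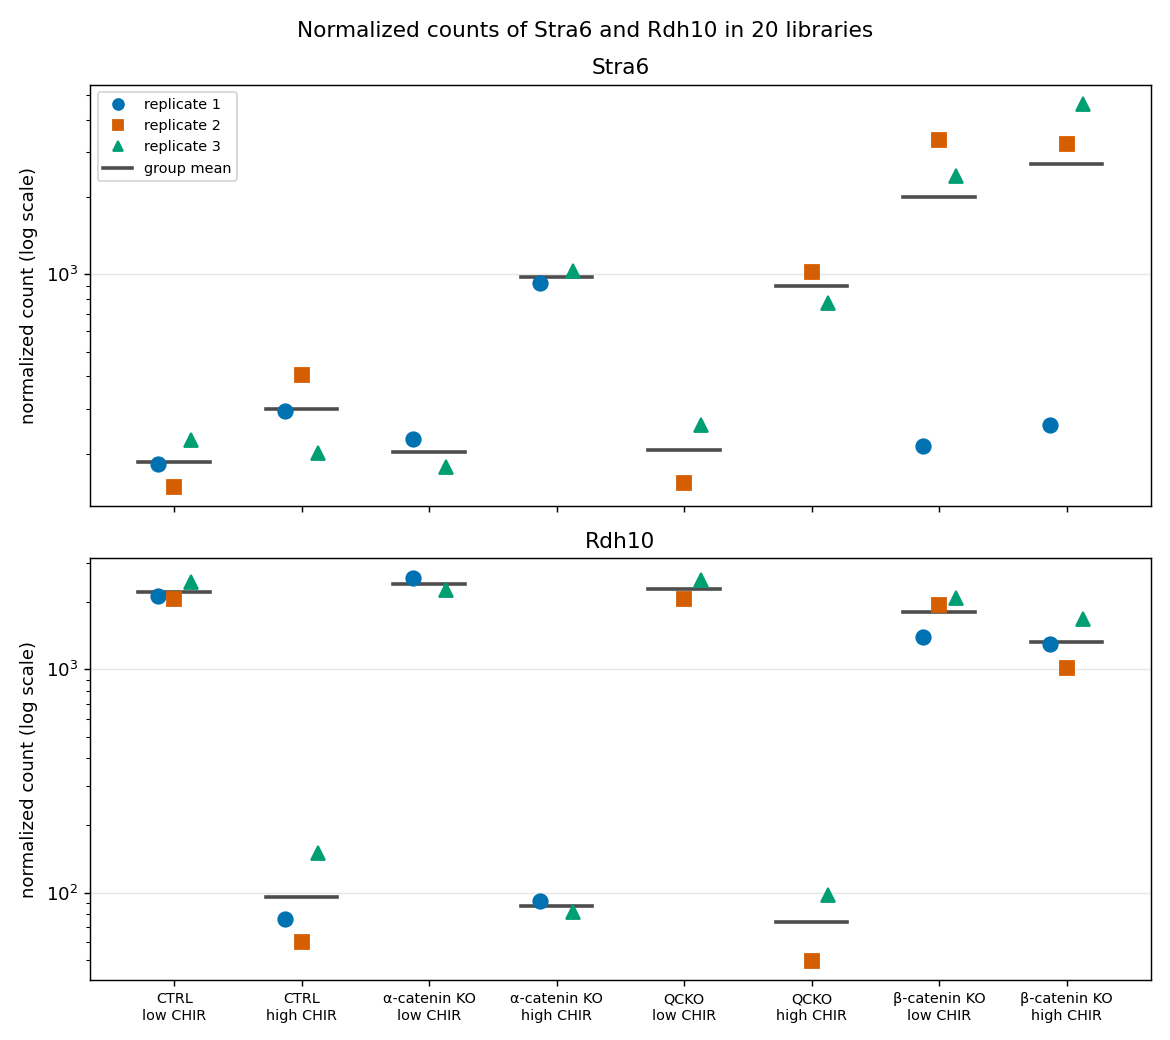
Normalized counts (log axis) of Stra6 and Rdh10 in each of the 20 libraries, by knockout and CHIR dose. Symbols mark the replicate (date in the sample title), and a line marks the group mean. Rdh10 lies between 49.5 and 150.5 in the high CHIR libraries of every genotype but β-catenin-KO and between 1019 and 2579 elsewhere; Stra6 in β-catenin-KO is at 215 and 259 in replicate 1 and between 2413 and 4596 in replicates 2 and 3.

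In β-catenin-KO, Rdh10 counts were 1397, 1952 and 2092 at the low dose and 1302, 1019 and 1677 at the high dose for replicates 1, 2 and 3. The ranges of the doses overlapped, and the high CHIR mean was 73.5% of the low CHIR mean. The log2 fold change of -0.45 ± 0.30 did not pass the test (limma adjusted p = 0.999; 95% interval -1.10 to 0.19), in a comparison in which only 0.0180% of genes were called, and without replicate 1 in any group it was -0.63 ± 0.43 and did not pass either. High CHIR was nevertheless the lower library on each of the 3 dates, at 93.2%, 52.2% and 80.2% of the low CHIR level. With all libraries the test therefore leaves room for a decline of up to 1.10 log2 units. Without replicate 1 in any group the 95% interval was wider, from -1.57 to 0.31. Both lower bounds are far short of the response in the other 3 genotypes.

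The difference between these responses was tested directly. The CHIR response of Rdh10 in β-catenin-KO exceeded the mean response of α-catenin-KO and QCKO by 4.45 ± 0.40 log2 units (SE; limma adjusted p = 3.71e-05), and 1.01% of genes were called in that comparison. This estimate uses no CTRL library and so shares none with the CTRL contrast that chose the gene. Rdh10 is also named in the study's comparison tables, which list genes that had differed in a comparison of these libraries. The test is therefore not fully independent of how the gene was chosen. In high CHIR alone, β-catenin-KO lay 4.06 ± 0.28 log2 units above the mean of α-catenin-KO and QCKO (limma adjusted p = 6.08e-07; 5.76% of genes called). Without the libraries of replicate 1 in any group, the difference in high CHIR was 4.10 ± 0.40 and the difference between responses was 4.27 ± 0.56 (limma adjusted p = 0.000254 and 0.00416).

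Against CTRL in high CHIR, the log2 difference of Rdh10 in β-catenin-KO was 3.87 ± 0.30 (SE), and 3.77 ± 0.43 without replicate 1 in any group. This and the other differences of Rdh10 from CTRL are given without a test, because the CTRL libraries are those whose values chose the gene. The ratio within a date was 17.1, 17.0 and 11.2 for replicates 1, 2 and 3. The 3 dates were thus close for Rdh10, including replicate 1, which stood apart for Stra6. In low CHIR, the log2 difference of Rdh10 between β-catenin-KO and CTRL was -0.31 ± 0.30, and -0.16 ± 0.43 without replicate 1 in any group, and the libraries of the 2 genotypes overlapped. The β-catenin-KO library was below its CTRL partner on each date, at 65.7%, 94.1% and 85.1%.

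The Rdh10 libraries of the adhesion knockouts overlapped those of CTRL at both doses. In high CHIR, the log2 difference from CTRL was -0.028 ± 0.35 (SE) for α-catenin-KO and -0.34 ± 0.35 for QCKO. In low CHIR the differences were 0.13 ± 0.35 and 0.040 ± 0.35. The log2 difference of QCKO from α-catenin-KO in high CHIR, which uses no CTRL library, was -0.31 ± 0.39 and did not pass the test (limma adjusted p = 1.00; 95% interval -1.15 to 0.52). By limma, 0% of genes were called for α-catenin-KO against CTRL at either dose, for QCKO against CTRL in high CHIR and for QCKO against α-catenin-KO, and 0.00605%, which is 1 gene, for QCKO against CTRL in low CHIR. At an unadjusted p under 0.05, the numbers of genes in the 4 comparisons without a call were 928 and 109 for α-catenin-KO in high and low CHIR, 1444 for QCKO in high CHIR and 123 for QCKO against α-catenin-KO. In the same order, edgeR called 0 genes in each and DESeq2 called 4, 1, 7 and 1.

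**Figure D2:**
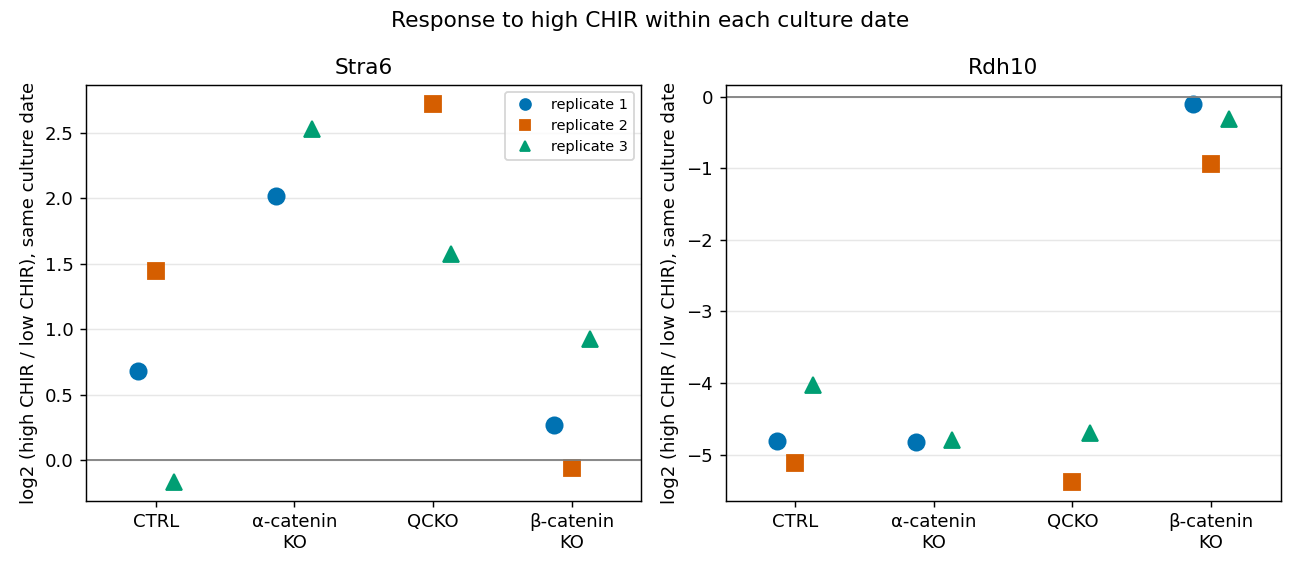
Log2 ratio of the high to the low CHIR library of the same date for Stra6 (left) and Rdh10 (right), by knockout. Symbols mark the replicate. For Rdh10 the 7 ratios outside β-catenin-KO correspond to 16.3-fold to 41.6-fold lower levels, while the 3 of β-catenin-KO lie between 52.2% and 93.2% of low CHIR.

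Ordered by group mean, Rdh10 was lowest in high CHIR in QCKO (73.4 ± 33.8, SD, n = 2), α-catenin-KO (86.6 ± 6.91, n = 2) and CTRL (95.4 ± 48.3, n = 3), whose libraries overlapped. A gap without libraries followed, from 150.5 to 1019. β-catenin-KO in high CHIR (1333 ± 331, n = 3) and low CHIR (1814 ± 367, n = 3) came next and overlapped each other. CTRL (2220 ± 207, n = 3), QCKO (2287 ± 324, n = 2) and α-catenin-KO (2424 ± 220, n = 2) in low CHIR were highest, and of these the α-catenin-KO libraries lay wholly above those of β-catenin-KO in low CHIR.

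The summed level of the NPC markers moved with Rdh10, although not every marker did. For the 9 of 12 listed markers that have an identifier, among them Six2, Cited1 and Meox2, the sum ranged from 16035 to 22113 in CTRL low CHIR, from 2549.5 to 3499.6 in CTRL high CHIR and from 8135 to 15576 in β-catenin-KO high CHIR. None of the 9 was at 0 in any library. Pax2 went the other way, with group means of 281 in CTRL low CHIR, 1288 in CTRL high CHIR and 371 in β-catenin-KO high CHIR. The part of this shift in the Rdh10 result was not tested. The named genes whose log2 levels followed Rdh10 most closely over the 20 libraries were Wt1 (Pearson r = 0.989), Fzd4 (0.984), Bcl2 (0.978), Six2 (0.976) and Meox2 (0.976), and these were also the 5 highest of all genes with a mean of at least 10. Wt1 and Six2 encode transcription factors that maintain NPCs, Fzd4 encodes a Wnt receptor and Bcl2 an inhibitor of apoptosis. In the 14 libraries without β-catenin-KO, r for these genes was between 0.985 and 0.993. The correlations describe libraries that share dates and CHIR doses and are given without a test.

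Stra6 took a different course: it was highest in most β-catenin-KO libraries whatever the CHIR dose, and it was higher in high CHIR without adhesion proteins than in CTRL. In CTRL, counts were 182, 148 and 225 at the low dose and 293, 404 and 201 at the high dose for replicates 1, 2 and 3. The groups overlapped, and high CHIR was above low CHIR on the dates of replicates 1 and 2 but below it on that of replicate 3. The means of 185 ± 38.6 and 299 ± 101 (SD, n = 3 each) correspond to a ratio of 1.61.

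In α-catenin-KO, Stra6 counts were 229 and 178 at the low dose and 927 and 1028 at the high dose for replicates 1 and 3. In QCKO, counts were 154 and 259 at the low dose and 1018 and 774 at the high dose for replicates 2 and 3. High CHIR exceeded low CHIR on every date, 4.05-fold and 5.77-fold in α-catenin-KO and 6.59-fold and 2.99-fold in QCKO. All 4 high CHIR libraries of these knockouts also lay above all 3 of CTRL, at ratios of the means of 3.27 for α-catenin-KO and 2.99 for QCKO. The share of all genes separated in this way was not counted. By limma 0% of genes were called in either comparison, so Stra6 was not called. Within a date the ratio to CTRL was 3.17 and 5.10 in the case of α-catenin-KO, and 2.52 and 3.84 in that of QCKO. As log2 differences from CTRL in high CHIR these were 1.76 ± 0.32 and 1.62 ± 0.32 (SE), given without a test because Stra6 was chosen for them. Markers of ureteric epithelium, of which 5 of 12 listed have an identifier, were also higher in these libraries. Their sum in high CHIR was 1277 to 2297 in α-catenin-KO and 1827 to 2113 in QCKO against 875 to 1057 in CTRL, and Gata3 had means of 521, 866 and 234; Wnt11 was at 15.5 or less in every library. Their part in the Stra6 difference was not tested. The ranges of α-catenin-KO and QCKO overlapped in high CHIR, where the log2 difference between them was -0.14 ± 0.35.

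In low CHIR, Stra6 without adhesion proteins lay within or near the CTRL range. The log2 difference from CTRL was 0.14 ± 0.32 for α-catenin-KO (limma adjusted p = 1.00; 95% interval -0.54 to 0.83) and 0.13 ± 0.32 for QCKO (limma adjusted p = 1.00; 95% interval -0.56 to 0.82). The CTRL libraries of this comparison are also those of the CHIR contrast in CTRL.

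In β-catenin-KO, Stra6 counts were 215, 3341 and 2413 at the low dose and 259, 3206 and 4596 at the high dose for replicates 1, 2 and 3. Replicates 2 and 3 were above every library of the other genotypes at both doses, the highest of which was 1028. Replicate 1 was at the CTRL level at both doses. Within a date, the ratio to CTRL was 1.18, 22.5 and 10.7 at the low dose and 0.885, 7.94 and 22.8 at the high dose. The means with their SD, 1990 ± 1606 in low CHIR and 2687 ± 2215 in high CHIR (n = 3 each), therefore describe no single library well.

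In high CHIR, the log2 difference from CTRL was 2.44 ± 0.93 (SE) with all libraries, given without a test because Stra6 was chosen on its levels there. It was 2.44 ± 0.79 with the date as a block, 3.17 by edgeR and 3.14 by DESeq2 on recovered reads. It was 3.73 without the high CHIR library of β-catenin-KO replicate 1 and 3.75 ± 0.38 without replicate 1 in any group. The size depended on whether replicate 1 was counted.

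In low CHIR, the log2 difference of 2.71 ± 0.93 did not pass the test (SE; limma adjusted p = 0.536; 95% interval 0.74 to 4.68). It passed by DESeq2 (3.42; adjusted p = 0.00751). It passed in none of the other settings in which replicate 1 was not left out of every group, with an adjusted p of up to 0.950. Without replicate 1 in any group it was 3.95 ± 0.38, given without a test because replicate 1 was left out after Stra6 was seen to lack the rise there. The response to CHIR within β-catenin-KO, which uses the high CHIR levels and is not tested, was 0.38 ± 0.93 log2 units with all libraries and 0.43 ± 0.38 without replicate 1, with ratios within a date of 1.20, 0.960 and 1.90. Beside the mean of α-catenin-KO and QCKO in high CHIR, Stra6 in β-catenin-KO was higher by 0.75 ± 0.87 log2 units with all libraries and by 2.01 ± 0.36 without replicate 1, a description without a test. Leaving out 1 library at a time gave -0.030 without β-catenin-KO high CHIR replicate 3, 0.23 without replicate 2 and 2.04 without replicate 1 of that group.

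**Figure D3:**
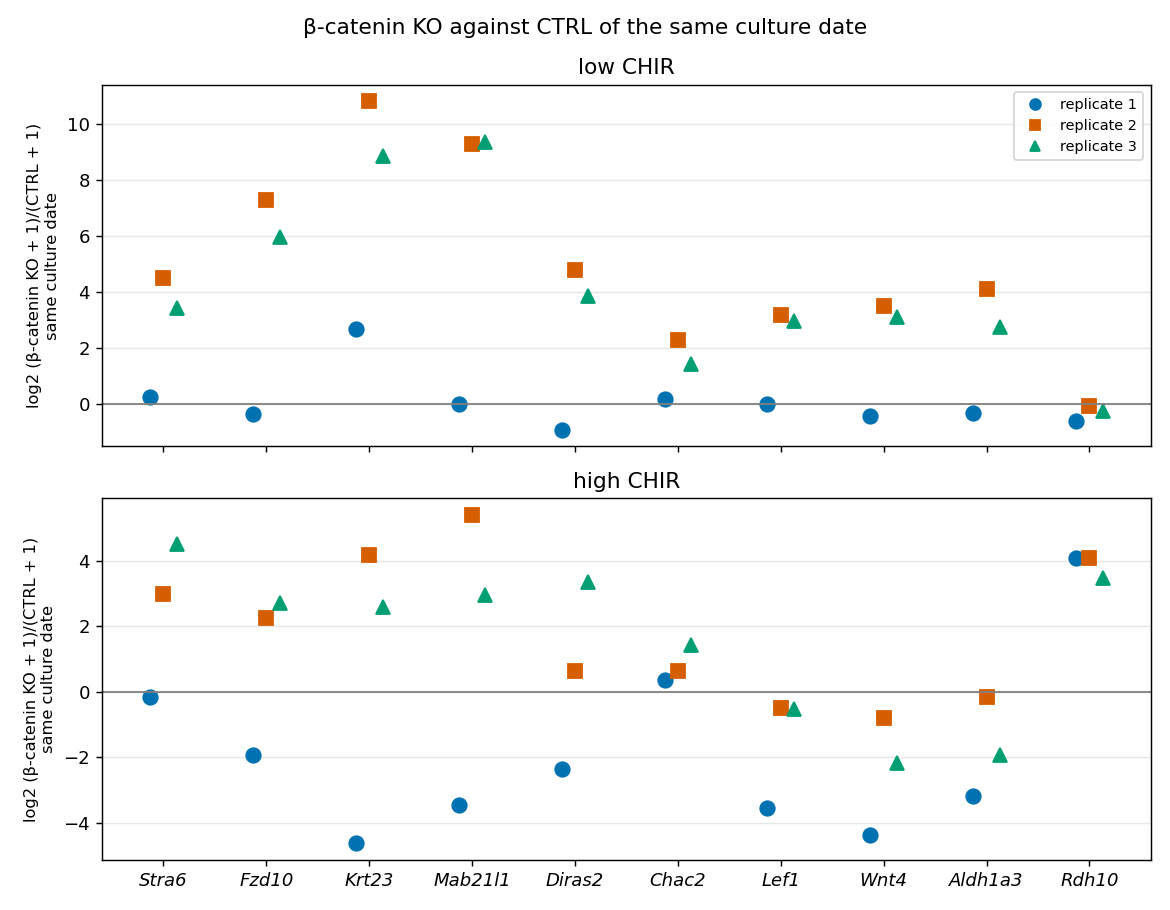
Log2 ratio of β-catenin-KO to the CTRL library of the same date in low CHIR (top) and high CHIR (bottom), after adding 1 to each count. The values are normalized counts of Stra6, the 5 named genes most like it, Lef1, Wnt4, Aldh1a3 and Rdh10. For Stra6 replicate 1 lies at 0.24 and -0.18 and replicates 2 and 3 between 2.99 and 4.51, whereas for Rdh10 the 3 replicates lie together at each dose.

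Genes regulated by β-catenin differed between the same β-catenin-KO libraries. Axin2, a feedback inhibitor of Wnt signalling and a direct β-catenin target, had counts of 13.97, 559.7 and 384 in β-catenin-KO low CHIR for replicates 1, 2 and 3, against 39.3, 71.5 and 61.4 in CTRL low CHIR. In high CHIR, Axin2 had 18.5, 743 and 687 in β-catenin-KO against 357, 435 and 391 in CTRL. Axin2 in replicate 1 was thus below CTRL of its date at both doses, and in replicates 2 and 3 it was above. Which of the listed guides went into these libraries is not given in the sources used here, and the extent and kind of editing in each culture cannot be read from these values, so β-catenin-KO stands for the label of a library and not for a measured loss of the protein. Notum, which encodes a secreted Wnt deacylase, had 1.07, 562 and 325 in β-catenin-KO low CHIR against 3.57, 6.50 and 5.29 in CTRL. Sp5, a transcription factor induced by Wnt, was at 0 in all 3 CTRL low CHIR libraries and had 0, 83.0 and 59.3 in β-catenin-KO.

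Lef1, a DNA-binding partner of β-catenin, had 62.3, 659.7 and 532 in β-catenin-KO low CHIR, and Wnt4, a ligand needed for the nephron epithelium to form, had 30.1, 831 and 634. Both were near CTRL in replicate 1, where CTRL had 62.5 and 41.1. In high CHIR both were below CTRL on every date, unlike Stra6. Lef1 had 93.6, 677 and 1020.0 in β-catenin-KO against 1118, 948 and 1465 in CTRL, and Wnt4 had 252, 2387 and 1200.4 against 5286, 4156 and 5401. Axin2, Notum, Sp5 and Stra6 are among the 20 genes with a symbol in the set of 79. Their part in the Stra6 difference was not tested.

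Over the 20 libraries, the named genes most like Stra6 were Fzd10 (Pearson r = 0.916), Diras2 (0.889), Chac2 (0.884), Mab21l1 (0.877) and Krt23 (0.845), ranked 9, 20, 24, 29 and 65 among all genes with a mean of at least 10. Fzd10, which encodes a Wnt receptor, had 3.22, 327 and 195 in β-catenin-KO low CHIR and 4.62, 187 and 317 in high CHIR. In CTRL it had at most 4.46 at the low dose and from 20.4 to 47.8 at the high dose. Fzd10 thus showed the same split between replicates as Stra6. Krt23, which encodes a keratin, had 5.37, 3750.3 and 1438 in β-catenin-KO low CHIR and 20.8, 2679.9 and 3495 in high CHIR. Without the β-catenin-KO libraries, r with Stra6 was between 0.718 and 0.822 for these 5 genes. Rdh10 and Stra6 themselves had r = -0.143 over all 20 libraries and -0.785 over the 14 without β-catenin-KO.

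By group mean, Stra6 was lowest in low CHIR in CTRL (185 ± 38.6), α-catenin-KO (204 ± 35.8) and QCKO (207 ± 74.2), which overlapped each other and CTRL in high CHIR (299 ± 101). QCKO (896 ± 172) and α-catenin-KO (978 ± 70.9) in high CHIR followed, separated from CTRL by the interval from 404 to 774. β-catenin-KO had the highest means and also held libraries at the lowest level.

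The rest of the pathway was described from a list of retinoid genes set out by role. Apart from the 2 members, 12 of 56 listed genes could be named, because symbols are paired with identifiers only for genes that the study's comparison tables list. Genes of that kind had already differed in a comparison of these libraries. Neither their counts nor the p-values given below for single genes of the list are therefore independent evidence. In high against low CHIR in CTRL, 10 of the 12 were called, 6 higher and 4 lower, beside 10.7% of all genes, with a median log2 fold change of 0.34 against -0.0059 over all genes tested. In α-catenin-KO 8 were called, 6 higher and 2 lower, beside 4.39% of all genes and with a median of 0.74, and in QCKO 7 were called, 5 higher and 2 lower, beside 4.93% of all genes and with a median of 0.53. In β-catenin-KO, where 0.0180% of all genes were called, 0 of the 12 were called by limma, edgeR or DESeq2, and 2 had an unadjusted limma p under 0.05, with a median of 0.38. For β-catenin-KO against CTRL in low CHIR, where limma called 0.0659% of all genes, 0 of 12 were called by limma and by edgeR, 1 by DESeq2 (which called 189 of 16358 genes), and 2 had an unadjusted p under 0.05. Without replicate 1 in any group, limma called 1 of 12, Aldh1a3, and 163 of 16661 genes. No result is drawn from that call, because the exclusion was made after the data were seen and Aldh1a3 was itself lower in β-catenin-KO replicate 1.

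Among the enzymes that interconvert retinol and retinal, Adh1, an alcohol dehydrogenase, followed the direction of Rdh10. Adh1 counts were 154, 49.8 and 81.5 in CTRL low CHIR and 5.67, 3.20 and 6.27 in CTRL high CHIR, and in β-catenin-KO high CHIR they were 219.5, 61.0 and 128. The last group lay wholly above CTRL high CHIR, by 4.36 ± 0.60 log2 units (limma adjusted p = 0.00034), and by 4.01 ± 0.54 without replicate 1 in any group (limma adjusted p = 0.00156). Rdh12, a retinal reductase, went the other way. It rose with CHIR by 1.84 ± 0.33 log2 units in CTRL and by 2.15 ± 0.40 and 2.31 ± 0.40 in α-catenin-KO and QCKO (limma adjusted p = 0.00339, 0.00815 and 0.00467), and the log2 difference between β-catenin-KO and CTRL in high CHIR was -1.77 ± 0.41 (limma adjusted p = 0.0129; 0.0565 without replicate 1 in any group). Rdh11, another reductase of this family, rose with CHIR by 1.14 ± 0.17 log2 units in CTRL (limma adjusted p = 0.000936), and Rdh14 fell by 0.97 ± 0.20 (limma adjusted p = 0.0084).

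Aldh1a3, which makes retinoic acid from retinal, had the largest rise among the 12 genes in CTRL. Its counts were 241, 98.6 and 223 in CTRL low CHIR and 4875, 2075 and 6746 in CTRL high CHIR, a log2 fold change of 4.54 ± 0.44 (limma adjusted p = 3.81e-05). In β-catenin-KO it had 195, 1703 and 1517 at the low dose and 529, 1860 and 1755 at the high dose. Replicates 2 and 3 were high already in low CHIR, as for Stra6, and replicate 1 was not. The CHIR response of Aldh1a3 in β-catenin-KO minus the mean response of α-catenin-KO and QCKO was -4.68 ± 0.93 log2 units (limma adjusted p = 0.0217). Without replicate 1 in any group it was -5.38 ± 0.68. That value is given without a test, because the exclusion was made after the data were seen and Aldh1a3 shows the split of replicate 1.

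**Figure D4:**
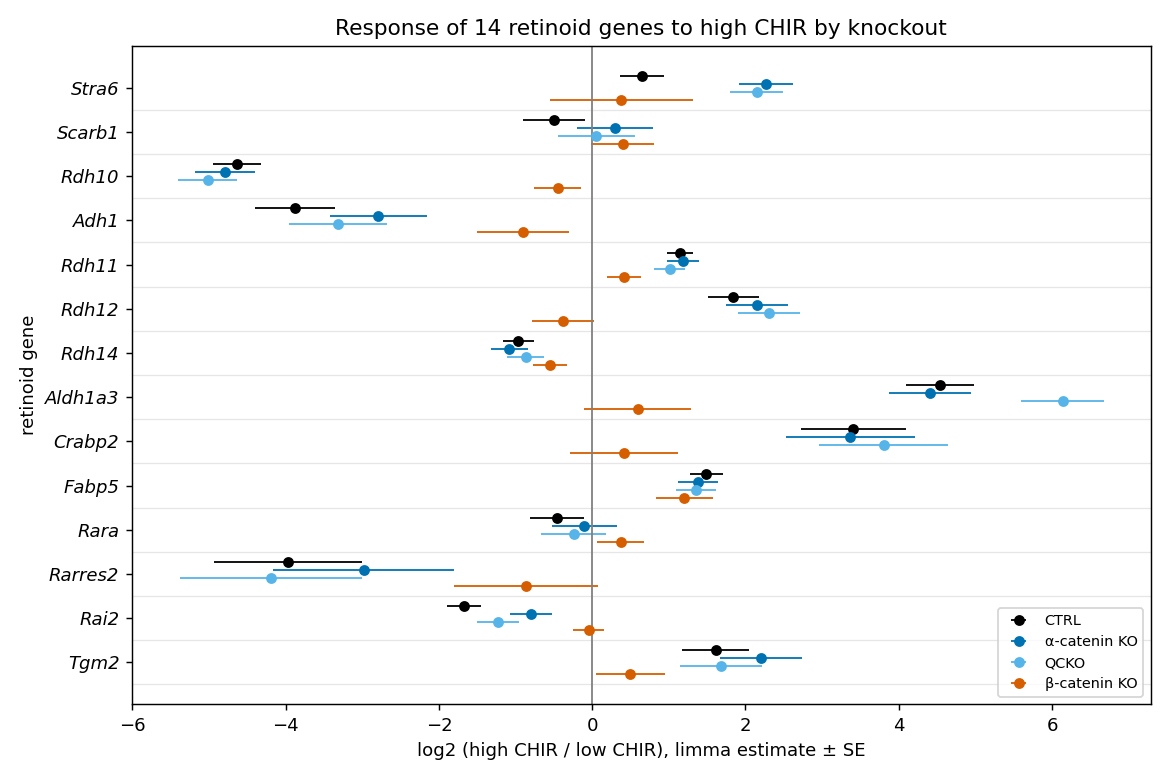
Limma estimates of the log2 fold change of high against low CHIR, with bars of 1 SE, for Stra6, Rdh10 and the 12 other named retinoid genes, coloured by genotype (CTRL in black, the adhesion knockouts in blues and β-catenin-KO in orange). Rdh10 is at -0.45 in β-catenin-KO and at -4.63 to -5.01 in the other 3; Aldh1a3 is at 0.59 in β-catenin-KO and at 4.41 to 6.14 in the other 3.

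Of the proteins that bind retinoic acid in the cytoplasm, Crabp2 rose with CHIR by 3.41 ± 0.69 log2 units in CTRL and Fabp5 by 1.49 ± 0.21 (limma adjusted p = 0.00697 and 0.000777). Crabp2 was lower in β-catenin-KO than in CTRL in high CHIR, with a log2 difference of -2.34 ± 0.71 (limma adjusted p = 0.0444), and -2.79 ± 0.58 without replicate 1 in any group (limma adjusted p = 0.0141). The receptor gene Rara was called only for β-catenin-KO against CTRL in high CHIR, at 1.22 ± 0.31 (limma adjusted p = 0.0213), and not without replicate 1 in any group (adjusted p = 0.0658). Scarb1, a scavenger receptor that takes up carotenoids and lipids, was called in none of the 13 comparisons by limma.

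Among genes known to respond to retinoic acid, Rarres2 and Rai2 fell with CHIR in CTRL by 3.97 ± 0.97 and 1.67 ± 0.23 log2 units (limma adjusted p = 0.0202 and 0.000494), and Tgm2, a transglutaminase, rose by 1.61 ± 0.44 (limma adjusted p = 0.0336). The responsive genes thus did not share a direction. In β-catenin-KO against CTRL in high CHIR, Rarres2 was higher by 3.86 ± 0.94 (limma adjusted p = 0.0178) and Rai2 by 1.45 ± 0.20 (limma adjusted p = 0.000337). Without replicate 1 in any group Rarres2 was not called (3.57 ± 1.14; limma adjusted p = 0.066), and Rai2 was (1.65 ± 0.25; limma adjusted p = 0.00297). Over the 12 genes, 6 were called in that comparison, 4 higher and 2 lower, beside 10.5% of all genes and with a median of 0.051; 3 were called when only the groups compared were used, 3 without CTRL high CHIR replicate 3, 3 without β-catenin-KO high CHIR replicate 1 and 4 without replicate 1 in any group.

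The labelled cell type was checked against marker lists. NPC markers were abundant in low CHIR, as given above. Ureteric epithelium markers, given in part above, summed to 314 to 1286 in CTRL low CHIR and 578 to 1135 in β-catenin-KO high CHIR. For stroma 2 of 12 had one, for endothelium 1 of 8, and for leukocytes 0 of 8, so these cell types could be checked only in part. The endothelial marker, Tek, was higher in high than in low CHIR in all genotypes by group mean, at 138 against 1.68 in CTRL, 238 against 6.40 without α-catenin, 289 against 1.88 in QCKO, and 45.6 against 4.03 in β-catenin-KO. In β-catenin-KO replicate 1 it was 4.62 in high CHIR, against 85.3 and 46.8 in replicates 2 and 3. Its part in the results for Rdh10 and Stra6 was not tested. For the stromal pair, Meis1 and Meis2, the sum was 3221 to 3819 in CTRL low CHIR and 1030.5 to 1510.5 in CTRL high CHIR. In β-catenin-KO it was 2328 to 2967 in low CHIR and 1109 to 1654 in high CHIR. Meis2 alone was at 473 to 886 in β-catenin-KO high CHIR and at 272 to 421 in CTRL high CHIR, without overlap, as for Rdh10. Meis1 went the other way, at 537 to 921 in β-catenin-KO high CHIR and 750 to 1090 in CTRL high CHIR. These ranges overlapped, and the means were 742 and 898. The part of these markers in the Rdh10 result was not tested.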

How the data were processed

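The submitters' processing notes name bcl2fastq, STAR, Subread featureCounts, Salmon and DESeq2, and the builds GRCm38, mm10 and GRCh38, without their roles. The deposited values are signal values, namely read counts that the authors divided by a size factor for each library, and whole reads were recovered by dividing by each library's smallest positive value (all values whole within 0.01). In 2 libraries that step was near 1, so the check is less telling there. The 7 deposited comparison tables hold fold changes and p-values that were not used; only their identifier and symbol pairs (4316 symbols) were read.

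Groups came from the labels. The main test was limma 3.58.1 (R 4.3.3) with a mean-variance trend on log2(normalized count + 1), which understates changes of low genes, with 1 mean per group, genes with a mean of at least 10 and Benjamini-Hochberg adjustment over all of them. The 14 libraries without β-catenin-KO were fitted for comparisons among CTRL, α-catenin-KO and QCKO, and all 20 for the rest. The fit was tested on simulated data. p-values measure the spread between libraries of 3 dates. The shared dates in the labels pair the samples: deviations from group means correlated between the low and high CHIR libraries of a date with r from 0.0474 to 0.721.

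Alternatives were another filter (none or a mean of 100), quantile-normalized values, pseudocounts of 0.25 and 5, a fold threshold of 1 (log2), a fit to the compared groups alone or to all 20 libraries, the date as a block, edgeR 4.0.16 and DESeq2 1.42.0 on recovered reads, each library left out and, chosen after seeing the data, replicate 1 left out in every group. The members, lists and tests were chosen with earlier results of these data known. The differences of Rdh10 from CTRL and, for Stra6, β-catenin-KO against CTRL in high CHIR and the CHIR response in β-catenin-KO had been planned as tests and are given as descriptions, because they use values that chose the gene. Named genes are the members, every retinoid list gene with an identifier, and the 5 named genes most correlated with each member; Axin2, Notum, Sp5, Lef1 and Wnt4 were added after their values were seen.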

Additional observations from a re-analysis of the deposited data

Results flagged for a closer look

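In 3 results, a response to CHIR differed between genotypes by the test of the difference itself. The CHIR response of Rdh10 in β-catenin-KO minus the mean response of α-catenin-KO and QCKO was 4.45 log2 units (limma adjusted p = 3.71e-05); the response within β-catenin-KO itself did not pass its test. The same difference was -4.68 for Aldh1a3 (limma adjusted p = 0.0217) and -2.61 for Rdh12 (limma adjusted p = 0.028). All 3 genes are named in the study's comparison tables of these libraries, so these p-values are not independent evidence. Without replicate 1 in any group the values were 4.27, -5.38 and -1.98. Limma adjusted p was 0.00416 for Rdh10 and 0.179 for Rdh12, so that the Rdh12 difference was not called there. The Aldh1a3 value is given without a test, because Aldh1a3 shows the split of replicate 1 and the exclusion was made after the data were seen. No group has more than 3 libraries, so single libraries were not tested as outliers.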

How the results depend on the processing

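Of 766 values recomputed for 28 results, 754 kept their direction and their side of the threshold, or moved by less than the spread between replicates. Every tested Rdh10 difference that was called, in 4 comparisons that use no CTRL library, was called under all alternatives run. The replicate block (date) turned Rdh10 in α-catenin-KO against CTRL in low CHIR from 0.13 to -0.039, a difference that was not tested. The block changed no call of a tested difference of a member. Stra6 in β-catenin-KO against CTRL in low CHIR passed by DESeq2 (3.42). It was 3.95 without replicate 1 in any group, an exclusion made after Stra6 was seen to be at the CTRL level there, so no call is drawn from it. In high CHIR, where it was not tested, leaving out each library in turn gave 1.66 to 3.73. Of the 12 retinoid genes, 3 were called for β-catenin-KO against CTRL in high CHIR when only those groups were used, and 3 to 9 when each library was left out.

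Some differences that were not called or not tested changed sign with single libraries, with ranges when each was left out of -0.30 to 0.35 for Rdh10 in α-catenin-KO and -0.82 to 0.14 in QCKO against CTRL in high CHIR, -0.11 to 0.18 for Rdh10 in QCKO against CTRL in low CHIR, and -0.79 to 0.17 for Rdh10 in QCKO against α-catenin-KO. For Stra6 in low CHIR the ranges were -0.035 to 0.32 for α-catenin-KO and -0.24 to 0.50 for QCKO against CTRL, and for its CHIR response in β-catenin-KO -0.86 to 1.67. The causes were not tested. Groups of 2 or 3 libraries limit all intervals, and the fewest reads for a member in a library were 41, where counting error is part of the spread.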
